A study of Rattus norvegicus with 24 samples.

Results

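The miR-132 and miR-212 hairpins give 4 mature miRNAs, miR-132-5p, miR-132-3p, miR-212-5p and miR-212-3p, and these were followed through cortex next to the lesion and thalamus of the same side in injured and sham-operated rats. They were taken by name (rno-miR-132-5p, rno-miR-132-3p, rno-miR-212-5p and rno-miR-212-3p, where rno marks the rat), as all rows for both hairpins among the 728 miRNAs of the count tables, and all 4 passed the filter on low counts in both regions. The cluster was chosen because its members stood out between injured and sham-operated rats in cortex. That contrast is therefore described below without a test, whereas the thalamus and the comparison of the regions were tested.

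Adult male Sprague-Dawley rats had either a lateral fluid-percussion injury (TBI), a blow to the intact dura by a pressure wave led through a craniectomy, or a sham operation with the anesthesia and surgery but no blow. Tissue was collected 3 months after surgery, and each of 6 TBI and 6 sham rats gave 1 small RNA library per region, 24 in all. The TBI rats had been selected by the study for a rim of inflammation around the lesion seen by imaging, so the injured group stands for such rats and not for every injured rat. The tissue was dissected bulk tissue, in which fewer cells of a type and less RNA per cell cannot be told apart.

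In neurons the 2 hairpins are processed from 1 primary transcript, which is switched on through the transcription factor CREB by synaptic activity and by neurotrophins such as BDNF. The best known products are the 3p arms, which act on messages for regulators of the cytoskeleton, among them Arhgap32 (p250GAP), and are known for promoting the growth of dendrites and spines. The cluster is widely used as a readout of neuronal activity and plasticity.

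The mature sequences show why the arms are treated as separate products and the hairpins as relatives. They were taken from RefSeq (rat assembly GRCr8), which holds all 4, and are printed 5′ to 3′ with the seed, bases 2 to 8, in capitals. The seed is the stretch that pairs with target messages.
miR-132-5p: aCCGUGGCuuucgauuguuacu
miR-212-5p: aCCUUGGCucuagacugcuuacug
miR-132-3p: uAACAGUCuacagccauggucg
miR-212-3p: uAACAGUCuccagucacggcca
The 3p arms carry 1 seed between them, and no other of the 693 rat mature miRNA names in the RefSeq table has it. Counted from 1 at the 5′ end, with the base of miR-132 first, the 3p arms differ by A10C, C14U, U17C, U20C and G22A, so that 17 of 22 bases are identical and every difference lies outside the seed. The 5p arms are less alike. Over the first 22 bases they share 14, and 1 of their differences, G4U, falls in the seed, so each has a seed of its own that no other rat name in the table holds.

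On GRCr8 all 4 lie on the plus strand of chromosome 10. miR-212-5p is at chr10:60521771-60521794, miR-212-3p at chr10:60521811-60521832, miR-132-5p at chr10:60522055-60522076 and miR-132-3p at chr10:60522091-60522112. Thus 222 bases separate the last base of miR-212-3p from the first of miR-132-5p, and the arms of miR-132 are 14 bases apart in the hairpin. The authors mapped reads to an older rat assembly, and these positions were not taken from their files.

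Depth ranged from 744564 to 4069284 miRNA reads per library in cortex and from 523298 to 4139901 in thalamus. Thus 3 reads, taken here as the floor for a count of 0, were worth up to 4.03 and 5.73 CPM. The shallowest thalamus libraries were those of sham rat 55 (523298 reads) and TBI rat 56 (538194 reads). They matter below, because both had the most miR-212-5p of their group and the least miR-212-3p. Levels are given in CPM, the read count scaled to the library size, here with trimmed mean of M-values (TMM) factors set over all 24 libraries.

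The 4 miRNAs were found in every library, and each had the same order of group means, highest in sham cortex, then TBI cortex, sham thalamus and TBI thalamus. Together they took 0.599% ± 0.0278 (SD, n = 6) of miRNA reads in sham cortex and 0.433% ± 0.0681 (SD, n = 6) in TBI cortex. In thalamus the share was 0.232% ± 0.0195 (SD, n = 6) in sham and 0.187% ± 0.0257 (SD, n = 6) in TBI. Among 407 miRNAs ranked by mean level, miR-132-3p stood at place 47 in sham cortex and place 78 in sham thalamus, whereas miR-212-3p stood at 181 and 231. In each group the order of the means was miR-132-3p, miR-132-5p, miR-212-5p, miR-212-3p, on the CPM scale and with no correction for length, since the miRNAs are 22 to 24 bases long.

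**Figure D1:**
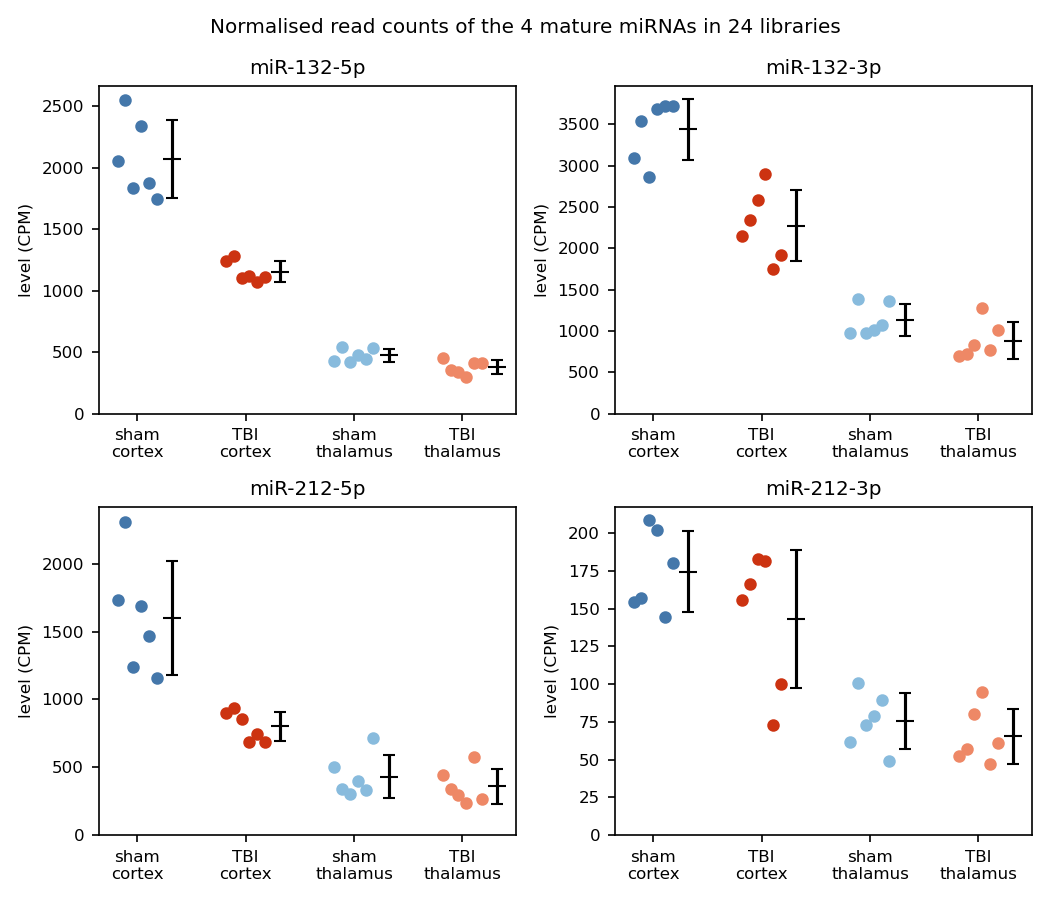
Level (CPM, linear axis from 0) of each mature miRNA in the 24 libraries, 1 point per rat, with the group mean and SD (n = 6) as a bar. For miR-132-5p the 6 TBI cortex points lie between 1073 and 1286, below the lowest sham cortex point at 1748, and the highest thalamus point is at 543.

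miR-132-5p showed the cleanest separation of the groups. Its level in cortex was 1748 CPM in the lowest sham rat, 1966 at the median and 2553 in the highest, against 1073, 1113 and 1286 in TBI rats. No TBI rat reached a sham rat in cortex, but this contrast chose the members, and how many of all miRNAs separated so was not counted. The TBI rats were closely spaced (1155 ± 86.6 CPM, SD, n = 6, against 2069 ± 317 in sham). The thalamus lay well below both cortical groups, at 423, 459 and 543 CPM in sham and 298, 381 and 449 in TBI (lowest, median and highest).

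miR-132-3p, the most abundant of the 4, gave 2863, 3608 and 3727 CPM in sham cortex and 1746, 2239 and 2899 in TBI cortex (lowest, median and highest of 6). Only the highest TBI rat overlapped with sham, and it exceeded a single sham rat. In thalamus it gave 976, 1045 and 1382 CPM in sham and 698, 794 and 1280 in TBI. All cortical values again exceeded all thalamic ones, and the thalamic groups overlapped.

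miR-212-5p, from the other hairpin, gave 1154, 1580 and 2311 CPM in sham cortex and 685, 799.5 and 935 in TBI cortex. As for miR-132-5p, no TBI rat overlapped with sham, with the same limits. In thalamus it gave 302, 369 and 714 CPM in sham and 235, 317 and 578 in TBI. Here the regions did overlap, since the 714 CPM of sham rat 55 exceeded the lowest TBI cortex value.

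miR-212-3p was the least abundant, with 22 to 458 reads per library over all groups, and its spread was the widest in TBI cortex. It gave 145, 168 and 209 CPM in sham cortex and 73.2, 161 and 183 in TBI cortex, so that 4 of 6 TBI rats lay within the sham range and 2 lay below it. The thalamus gave 49.2, 75.7 and 101 CPM in sham and 47.2, 58.9 and 95.0 in TBI. The TBI cortex overlapped with both thalamic groups.

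The first comparison was that of TBI with sham in cortex, the one that chose the cluster. On the log2 scale of the edgeR fit, TBI minus sham was -0.80 (SE 0.12) for miR-132-5p, -0.96 (SE 0.17) for miR-212-5p, -0.55 (SE 0.15) for miR-132-3p and -0.23 (SE 0.20) for miR-212-3p. Thus the 5p arm of each hairpin was further below sham than the 3p arm of the same hairpin. miR-132-5p and miR-212-5p did not overlap between TBI and sham, but how many of all miRNAs did so was not counted. miR-132-5p and miR-212-5p were also measured by droplet digital PCR in the same cortical samples. The study reports no significant difference between TBI and sham for either by that method. It adds that most candidates without significance there went in the same direction as in sequencing. Across all miRNAs tested in cortex 5.93% were called in either direction and 2.96% were called lower in TBI, and nothing is read from the count of members, as they were chosen on this contrast. All 4 values were below 0 under every scaling tried. With library size alone as the scale, the median of all miRNAs moved from 0.05 to 0.25 and the member values to -0.57, -0.71, -0.34 and -0.02, in the order given above.

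Marker miRNAs of cell types were summed in the same cortical libraries. The neuronal list (miR-124-3p, miR-128-3p, miR-9a-5p, miR-9a-3p, miR-138-5p and miR-137-3p) summed to between 255554 and 339773 CPM in TBI cortex and between 336513 and 616111 in sham cortex, and 1 of 6 members, miR-128-3p, was called lower in TBI. miR-128-3p, at a mean of 190058 CPM over all libraries, carried much of this sum (log2 difference -0.75), whereas miR-124-3p and miR-137-3p gave 0.15 and 0.22 and the list median was -0.12. The microglia and leukocyte list (both arms of miR-142, miR-223-3p, miR-150-5p, miR-155-5p and miR-146a-5p) summed to 1589 to 2300 CPM in TBI cortex and 1171 to 1619 in sham. None of its 6 members was called by edgeR in cortex, beside 5.93% of all miRNAs tested. There 5 had an unadjusted p below 0.05 in edgeR, and DESeq2 called 2 higher. How many of all miRNAs had such an unadjusted p in cortex was not counted, so nothing is read from the 5. DESeq2 called more of all miRNAs in cortex than edgeR, as given at the end, and nothing is read from its 2 calls. No listed marker was at 0 in any group, and the part of these sums in the cortical values of miR-132 and miR-212 was not tested.

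The next comparison asked whether the cluster also differed between TBI and sham in the thalamus, a region that did not enter the choice of the members. edgeR's quasi-likelihood test called none of the 4 at an adjusted p below 0.05, and none had an unadjusted p below 0.05, as 5.13% of all miRNAs tested did. With DESeq2 none passed either, with 1 at an unadjusted p below 0.05. Among the 390 miRNAs tested there, edgeR called 0.513%, with 0% called lower in TBI. TBI minus sham was -0.33 (SE 0.17, adjusted p = 0.781 in edgeR) for miR-132-5p and -0.37 (SE 0.19, adjusted p = 0.781 in edgeR) for miR-132-3p on the log2 scale.

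The miR-212 arms gave smaller and less certain thalamic values, -0.26 (SE 0.28) for miR-212-5p and -0.22 (SE 0.22) for miR-212-3p, each with an adjusted p of 0.825 in edgeR. All 4 estimates were below 0, as were 52.8% of all miRNAs tested, and their median was -0.30 against -0.03 for all miRNAs. Below every sham rat lay 5 of 6 TBI rats for miR-132-5p, 4 for miR-132-3p, 3 for miR-212-5p and 1 for miR-212-3p. The same was not counted over all miRNAs, so nothing is read from these counts. With each rat left out in turn the value ran from -0.38 to -0.22 for miR-132-5p, from -0.46 to -0.22 for miR-132-3p and from -0.31 to -0.04 for miR-212-3p, the last without sham rat 32. That of miR-212-5p ran from -0.38 to 0.01, and was above 0 only without sham rat 55 (adjusted p = 0.98 in edgeR). None of these fits called a member, and the part of library depth in these shifts was not tested.

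Marker lists in the same thalamus libraries gave the neuronal list below 0 for 6 of 6 members (median -0.25, none called by edgeR, 1 at an unadjusted p below 0.05, none called by DESeq2). The microglia and leukocyte list was above 0 for 5 of 5 members tested (median 1.01), and miR-146a-5p and miR-155-5p were called higher in TBI. Its sums were 1471 to 2821 CPM in TBI and 1081 to 1525 in sham, and the part of these lists in the thalamic values of miR-132 and miR-212 was not tested.

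**Figure D2:**
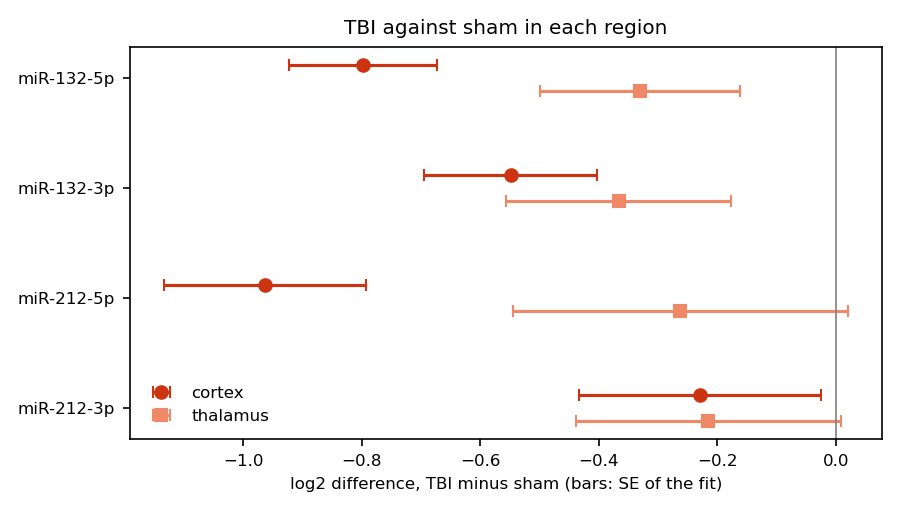
TBI minus sham of each mature miRNA (log2, horizontal axis) in cortex (circles) and thalamus (squares), from separate edgeR fits, with bars of 1 SE. The cortical values run from -0.96 for miR-212-5p to -0.23 for miR-212-3p, and the thalamic ones from -0.37 to -0.22.

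The cortical and thalamic differences were also set against each other in 1 fit of all libraries. The injury difference in cortex minus that in thalamus was -0.51 (SE 0.18) for miR-132-5p, -0.74 (SE 0.32) for miR-212-5p, -0.24 (SE 0.23) for miR-132-3p and -0.07 (SE 0.31) for miR-212-3p on the log2 scale. With library size alone as the scale they were -0.23, -0.47, -0.008 and 0.19 in the same order, so that miR-212-3p changed sign. The 5p arm of each hairpin lay below its 3p arm on either scale. A change of scale multiplies all miRNAs of a library by the same factor, so the repeat of this order carries no weight of its own. These estimates are given without a test, because their cortical component chose the members.

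The regions themselves differed strongly in the level of the cluster. Taken as the mean of the TBI and the sham contrast, which keeps it apart from the cortical injury contrast, cortex exceeded thalamus for all 4 members (4 of 4 called higher in cortex by edgeR and by DESeq2). By comparison, 40% of 407 miRNAs were called in either direction and 19.7% were called higher in cortex. The difference was 1.87 on the log2 scale (SE 0.09, adjusted p = 3.52e-14 in edgeR) for miR-132-5p, the smallest p of the 407. For miR-132-3p it was 1.48 (SE 0.12, adjusted p = 2.13e-10 in edgeR), the 4th smallest.

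Both arms of miR-212 followed, with 1.53 (SE 0.16, adjusted p = 3.49e-08 in edgeR) for miR-212-5p and 1.16 (SE 0.16, adjusted p = 1.39e-06 in edgeR) for miR-212-3p. Each of the 4 was higher in cortex than in thalamus in 12 of 12 rats, a count that was not made over all miRNAs. Within a rat the cortex held 2.61 to 4.95 times (median 3.70) as much miR-132-5p as the thalamus and 1.90 to 3.63 times (median 3.00) as much miR-132-3p. For miR-212-5p the fold ran more widely, from 1.29 to 6.77 (median 2.90), and for miR-212-3p from 1.55 to 3.66 (median 2.39). Such folds rest on the TMM factors. With library size alone as the scale, the median regional difference of all miRNAs moved from -0.005 to -0.32. The member values were then 1.58 for miR-132-5p, 1.19 for miR-132-3p, 1.25 for miR-212-5p and 0.85 for miR-212-3p. On that scale miR-212-3p of sham rat 32 stood at 112.6 CPM in both regions.

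The step between regions was present in both groups of rats. In sham rats alone it was 2.13 for miR-132-5p, 1.60 for miR-132-3p, 1.90 for miR-212-5p and 1.20 for miR-212-3p on the log2 scale, and in TBI rats alone 1.62, 1.36, 1.16 and 1.13. For miR-132-5p the within-rat fold had a median of 4.52 (3.30 to 4.95) in sham rats and 3.02 (2.61 to 3.76) in TBI rats. With the rat as a block, since its number pairs both libraries, the regional differences were 1.88, 1.49, 1.58 and 1.17 for miR-132-5p, miR-132-3p, miR-212-5p and miR-212-3p.

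**Figure D3:**
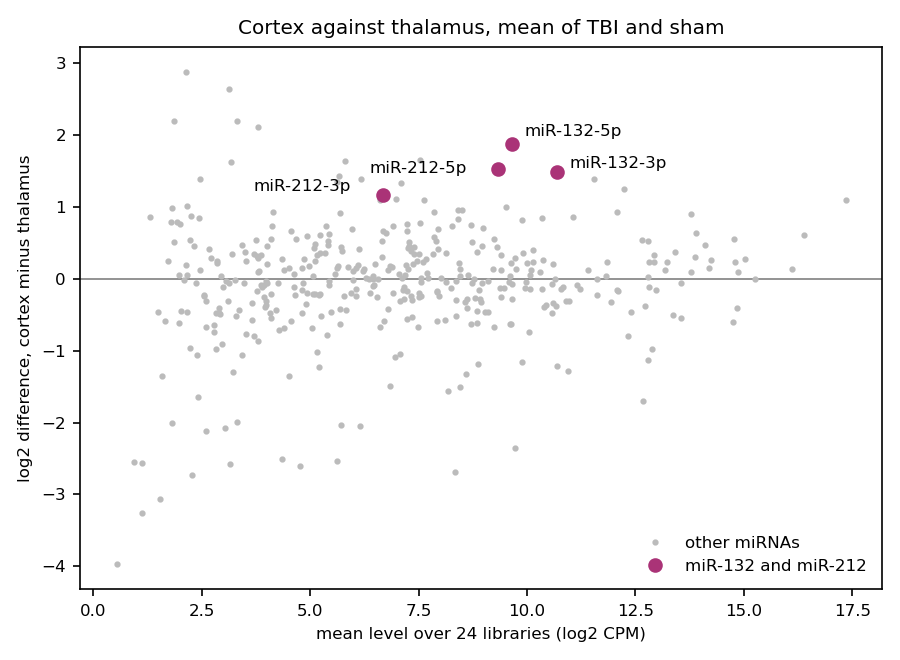
Cortex minus thalamus (log2, vertical axis) against mean level over 24 libraries (log2 CPM, horizontal axis) for 407 miRNAs, with the 4 members as large points. The members lie between 1.16 and 1.87, while the median of all miRNAs is -0.005.

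Marker lists differed between the regions as well. In the same contrast 5 of 6 neuronal markers were called higher in cortex, with log2 differences of 0.24 to 1.09 over the list (median 0.67, against 1.51 for the 4 members), and their summed level was 128564 to 330274 CPM in thalamus libraries. All 3 oligodendrocyte markers (miR-219a-5p, miR-219a-2-3p and miR-338-3p) were called lower in cortex, by -1.70 to -1.32, with sums of 3482 to 4988 CPM in cortex and 10137 to 17587 in thalamus. The part of such differences in cell makeup in the regional step of miR-132 and miR-212 was not tested.

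Ratios of reads within a library need no scaling and show how the arms and hairpins stood to each other. In sham cortex there were 0.606 ± 0.0978 miR-132-5p reads per miR-132-3p read (SD, n = 6) and 9.45 ± 3.29 miR-212-5p reads per miR-212-3p read. The hairpins therefore favoured opposite arms in these counts, the 3p arm for miR-132 and the 5p arm for miR-212, and this held in each of the 24 libraries. miR-132-3p exceeded its seed partner miR-212-3p by 20.1 ± 4.04 reads to 1 in sham cortex, whereas the 5p arms were nearly level, at 1.33 ± 0.164 miR-132-5p reads per miR-212-5p read.

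In cortex, where ratios too are only described, the miR-212 arms shifted the most. TBI cortex had 6.13 ± 2.21 miR-212-5p reads per miR-212-3p read (SD, n = 6; lowest 3.80, median 5.69, highest 10.1), against a lowest of 5.92, a median of 9.23 and a highest of 14.7 in sham cortex. Below every sham rat were 4 TBI rats, and the mean log2 ratio was -0.62 (SE 0.28) in TBI minus sham. For miR-132 the same arm ratio gave 0.523 ± 0.0931 in TBI, a log2 difference of -0.22 (SE 0.15), with 2 TBI rats below every sham rat. Over the 53 hairpins with a mean of at least 50 CPM for both arms the median of this difference was -0.05 (quartiles -0.22 and 0.11), and miR-212 was the 2nd lowest and miR-132 the 14th.

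Between the hairpins in cortex, miR-132-3p per miR-212-3p was 16.8 ± 3.91 in TBI (log2 difference -0.27, SE 0.18) and miR-132-5p per miR-212-5p was 1.46 ± 0.134 (0.14, SE 0.09). Neither separated the groups. In thalamus none of the 4 ratios differed between TBI and sham beyond the spread between rats. The log2 differences there were 0.04 for the miR-132 arms, -0.05 for the miR-212 arms, -0.16 for the 3p arms and -0.08 for the 5p arms. Adjusted p was 0.92 for each (exact two-sided permutation test, n = 6 per group, adjusted over the 4 ratios, smallest possible p 0.00216), and the SE of 0.20 to 0.47 leaves room for differences as large as the cortical ones.

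The arm balance did differ between regions. miR-132-5p per miR-132-3p was 1.30-fold higher in cortex than in thalamus of the same rat (log2 0.38, SE 0.09, 11 of 12 rats, adjusted p = 0.00586, exact two-sided permutation test over all sign changes, adjusted over the 4 ratios). The group means were 0.422 ± 0.0293 in sham thalamus and 0.453 ± 0.139 in TBI thalamus (SD, n = 6). miR-132-3p per miR-212-3p was 1.26-fold higher in cortex (11 of 12 rats, adjusted p = 0.0234, exact permutation test). These 2 calls passed 0.05 with each rat left out in turn.

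For the 5p arms, miR-132-5p per miR-212-5p was 1.24-fold higher in cortex (10 of 12 rats, adjusted p = 0.0384, exact permutation test), and this call was lost in 8 of the 12 tests that each left out 1 rat. The miR-212 arm ratio was 1.32-fold higher in cortex (8 of 12 rats), which did not pass (adjusted p = 0.138, exact permutation test). It turned on the shallow library of sham rat 55: without this rat the log2 difference came to 0.55 from 0.40 (adjusted p = 0.0391, exact permutation test). In that library and in the one of TBI rat 56 the ratio was 14.2 and 12.0, from 22 and 24 reads of miR-212-3p. Over the 53 hairpins the median regional difference of the arm ratio was 0.006, and miR-212 was the 7th highest and miR-132 the 11th.

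**Figure D4:**
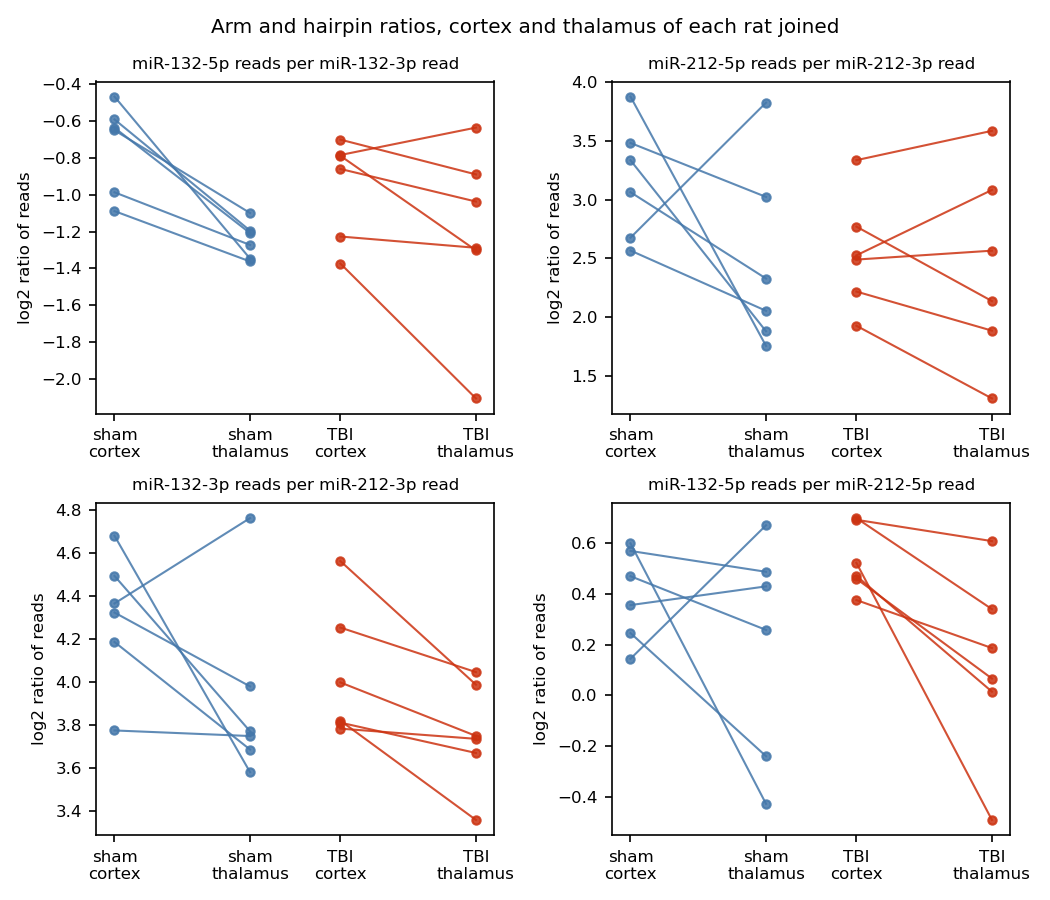
Log2 ratios of reads (vertical axes) for the arms of each hairpin and for the same arm of both hairpins, with the cortex and thalamus of each rat joined by a line, sham rats in blue and TBI rats in red. The miR-132 arm ratio falls from cortex to thalamus in 11 of 12 rats, and that of miR-212 in 8.

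The members were also compared from rat to rat within each group. Of 24 correlations of log2 CPM within groups of 6 rats (4 pairs of members in 4 groups, and cortex with thalamus of a rat in 2), 16 were positive, 5 had an unadjusted p below 0.05 and none passed after adjustment over the 24. The highest r was that of the miR-132 arms in sham thalamus, at 0.95 (n = 6, exact permutation p = 0.0194, adjusted p = 0.156) with Spearman rho = 0.89 (exact permutation p = 0.0333), and it came to 0.48 without the 2 rats farthest from the median. The smallest p belonged to 2 other pairs. The 5p arms in sham cortex gave Pearson r = 0.93 (n = 6, exact permutation p = 0.00556, adjusted p = 0.0667) and rho = 0.94 (exact permutation p = 0.0167). The 3p arms in TBI cortex gave r = 0.91 (n = 6, exact permutation p = 0.00556, adjusted p = 0.0667) and rho = 0.94 (exact permutation p = 0.0167). Without the 2 rats farthest from the median these were 0.97 and 0.92. The relation of the 5p arms depended on the scaling, since with library size alone r was 0.74 (n = 6, exact permutation p = 0.0917) and 0.32 without those 2 rats, while that of the 3p arms was 0.93 and 0.92.

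The correlations of the miR-212 arms in thalamus were negative but did not pass after adjustment. In sham rats r was -0.85 (n = 6, exact permutation p = 0.0278, adjusted p = 0.167) and Spearman rho was -0.60 (exact permutation p = 0.242). In TBI rats it was also -0.85 (n = 6, exact permutation p = 0.0361, adjusted p = 0.173), with rho at -0.94 (exact permutation p = 0.0167). Without the 2 rats farthest from the median these came to 0.12 and -0.72, so the sham value rests on those rats. With library size alone they were -0.79 and -0.77, and 0.15 and -0.32 without the 2 rats.

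Over the 24 libraries, the miRNAs whose log2 CPM ran most like the mean of the 4 members, among 250 with a mean of at least 50 CPM, were miR-873-5p (r = 0.93), miR-139-5p (0.89), miR-138-5p (0.87), miR-128-3p (0.87) and miR-146b-5p (0.86). Of these, miR-138-5p and miR-128-3p are on the neuronal list given above, and miR-873-5p, miR-139-5p and miR-146b-5p are not. These libraries form 4 groups, and once the group means were removed the correlations came to 0.21, 0.23, 0.48, 0.27 and 0.31, so most of the likeness lay between groups. The lowest correlations were those of miR-298-5p (-0.93), miR-219a-2-3p (-0.91) and miR-338-5p (-0.91), of which miR-219 and miR-338 are known from myelinating oligodendrocytes. With the group means removed these came to -0.095, 0.32 and 0.003, so this opposition too lay between groups and was not seen within them.

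Other miRNAs known to respond to neuronal activity or to act at synapses were taken from a list. Of its 20 members, among them miR-134-5p, miR-138-5p, miR-124-3p, miR-184 and miR-29a-3p, 18 were tested in cortex and none was called between TBI and sham by edgeR (none at an unadjusted p below 0.05) or by DESeq2. The count of calls is near the 5.93% of all miRNAs called in cortex, and nothing particular to the list is read from it. The share of all miRNAs with an unadjusted p below 0.05 in cortex was not counted. It was above 5.93%, since uncalled miRNAs, such as 5 of the microglia and leukocyte list, also had such a p. The lack of such a p in the activity list is therefore not shown to be near the share of all miRNAs. The median log2 difference of the listed miRNAs in cortex was -0.10 against 0.05 for all miRNAs, with 13 of 18 below 0. The share of all miRNAs below 0 in cortex was not counted, so nothing is read from the 13. In thalamus none of 17 was called by edgeR (2 at an unadjusted p below 0.05) or by DESeq2, with a median of -0.26 against -0.03 and 15 below 0. Of all miRNAs tested in thalamus, 52.8% were below 0 and 5.13% had an unadjusted p below 0.05 in edgeR. Between regions 7 of 18 were called higher in cortex and 3 lower, beside 19.7% of all miRNAs called higher and 40% called in either direction, with a median of -0.005, the same as for all miRNAs to 3 decimals. Among these, miR-184 (1.39, adjusted p = 0.00121 in edgeR) was higher in cortex, and miR-219a-5p, also on the oligodendrocyte list, was lower (-1.57, adjusted p = 1.18e-05 in edgeR), both named after their values were seen.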

How the data were processed

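Small RNA of 24 tissue samples was ligated to adapters, sequenced and mapped by the authors to an older rat genome assembly (RGSC3.4) with miRBase 20 names; the mapping tool is not given in the sources used here. The authors deposited whole read counts per mature miRNA, 1 table per region, with 728 miRNAs each. How reads fitting both miR-132-3p and miR-212-3p were assigned is not stated. The deposited CPM tables and 444 tRNA rows of the cortex table were not used. Samples were grouped by their titles.

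Counts were tested with edgeR 4.0.16 (R 4.3.3): filterByExpr, TMM, robust quasi-likelihood fits, Benjamini-Hochberg adjustment over all miRNAs tested and a threshold of 0.05, per region or over all 24 libraries for the comparison of regions. SE was the absolute log2 difference divided by the square root of F. Ratios were log2 of counts + 0.5, compared by exact permutation of 924 divisions or 4096 sign changes. DESeq2 1.42.0 was an alternative. Scripts were tested on simulated data. The floor of 3 reads covers counting error only. Depth is given in the report.

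The members and the lists were chosen with earlier results of these data known. To be named by rule were the 4 members, the 5 miRNAs most like their mean and the 3 least like it. The rule added up to 6 listed activity miRNAs called in cortex or thalamus, of which there were none. Other miRNAs of the marker and activity lists were named outside this rule, miR-184 and miR-219a-5p after their values were seen. The rat number in the titles was taken to pair the libraries of 1 animal. Deviations from the group means correlated between them with a median r of 0.32 (-0.16 to 0.60 over 12 rats, above 0.1 in 8). In TBI rats r ran from 0.25 to 0.60, and in sham rats from -0.16 to 0.43. Libraries of different rats were not compared in this way, so the pairing rests on the titles. No libraries of a group were duplicates (chi-square per degree of freedom at least 31.4 over 60 pairs).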

Additional observations from a re-analysis of the deposited data

Results flagged for a closer look

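Of 32 group values of the 4 miRNAs and their 4 ratios, 1 held a rat far from the others of its group, where chance alone gives about 1.6. The number of miR-132-3p reads per miR-212-3p read was 27.1 in the thalamus of sham rat 55, and the next sham rat had 15.8. This library was the shallowest, with 523298 miRNA reads, of which 610 were miR-132-3p and 22 were miR-212-3p.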

How the results depend on the processing

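The 4 cortical estimates stayed below 0 and the 4 regional differences stayed above 0 and past the threshold under every alternative run, the rat as a replicate block included (1.88, 1.49, 1.58 and 1.17 for miR-132-5p, miR-132-3p, miR-212-5p and miR-212-3p), which changed no call. Scaling by library size alone moved miR-132-5p in cortex to -0.57 and its difference between regions in the injury effect to -0.23, and turned that of miR-212-3p to 0.19. Leaving out each rat in turn gave -0.21 to 0.044 for the latter, -0.38 to 0.014 for miR-212-5p in thalamus, and, for the thalamic ratios in TBI minus sham, -0.077 to 0.22 (miR-132 arms), -0.28 to 0.22 (miR-212 arms), -0.23 to 0.0047 (3p arms) and -0.20 to 0.047 (5p arms). The regional ratios ran from 0.24 to 0.38 for the 5p arms, where 8 of 12 rats when left out ended the call, and from 0.25 to 0.55 for the miR-212 arms, where sham rat 55 made it. The cause of these shifts was not tested. Over all miRNAs the cortical count of 22 calls became 39 with library size, 41 with DESeq2, 5 with all 24 libraries in 1 fit and 1 with scaling by the study's 4 reference miRNAs, and ran from 4 to 30 with each rat left out. The thalamic count of 2 became 0 with the reference miRNAs, 5 in the fit of 24 libraries and 0 to 2 with each rat left out. Robust against non-robust spread, and the cortical ratios without a pseudocount or with a rat left out, were chosen after seeing the data. Low reads of miR-212-3p in the shallow libraries limit its thalamic values.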
